A study of Homo sapiens with 6 samples.

Results

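The transcripts described here encode the chaperones and co-chaperones of the cytosol and the mitochondria, 47 genes in all out of 62754 in the deposited tables. They are the heat shock factors HSF1 and HSF2, the HSP70, HSP110 and HSP90 families, small heat shock protein names, the chaperonins CCT and HSP60, prefoldin, HSP40 proteins, BAG proteins and other co-chaperones. Of the 47 names, 46 were found by gene name, and HSPB11 was found through its identifier, which the tables list under the newer symbol IFT25. The cells were HUDEP-2, a human erythroid progenitor line immortalised with papillomavirus E6 and E7 genes that doxycycline induces. They carried either a lentiviral shRNA against MEN1, named MEN1sh2 and labelled as a MEN1 knockdown (knockdown cells), or a non-targeting shRNA, named Controlsh and labelled WT. Each group had 3 libraries labelled as biological replicates, harvested 72 h after transduction. Both groups grew with erythropoietin (3 units per ml), stem cell factor (50 ng per ml), dexamethasone (1e-06 M) and doxycycline (1 µg per ml), and both were selected with puromycin (2 µg per ml) from 24 h after infection for 48 h. There was 1 MEN1 hairpin in 1 cell line, so the loss of menin and any other action of the hairpin cannot be told apart. The labels do not say whether the replicates came from separate transductions, so p-values measure the spread between these libraries.

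Chaperones bind proteins that are not yet folded or have lost their fold. HSP70 proteins take hold of short exposed stretches in a cycle driven by ATP, HSP40 proteins deliver the client and trigger that cycle, and BAG and HSP110 proteins reset it by releasing ADP. HSP90 acts later, on kinases and steroid receptors among others, while the ring-shaped chaperonins (CCT in the cytosol, HSP60 with HSP10 in mitochondria) enclose clients, and prefoldin hands actin and tubulin to CCT. HSF1 is the factor that switches on many of these genes under heat or proteotoxic stress through heat shock elements in their promoters. Erythroid cells load this machinery with globin, and cytosolic HSP70 is known in that lineage for shielding GATA1 from cleavage. The members are a set by name and family rather than by compartment: HSPA13 is a microsomal HSP70 relative, and HSPB11 is known chiefly as an intraflagellar transport protein.

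MEN1, which encodes menin, checks the labels. Its TPM, a transcript abundance scaled for gene length and to the same total in every library, was 6.29, 6.44 and 6.88 in knockdown cells and 41.2, 39.6 and 37.1 in the controls, so that 16.6% of the control level remained (log2 fold change -2.42, SE 0.0803, adjusted p 8.54e-06 in limma). Total aligned bases inferred from the deposited values ran from 5565000000 to 10810000000 per library. All 10 erythroid markers were expressed, and 8 of them (80%, against 22.1% of all genes tested) were higher in knockdown cells. Their summed level was 96249 to 108250 TPM against 55598 to 61671 TPM in the controls. Of 14 markers of other blood cells 11 stayed below 1 TPM in every library, PF4, PPBP and MS4A1 at 0. The others were LYZ, CD3D and ITGA2B, which was the highest at up to 36.3 TPM. This list had a summed level of 20.8 to 26.2 TPM against 34.7 to 39.0 TPM. Of its 3 genes tested, 1 was higher (log2 fold change 1.96) and 2 lower (33.3% and 66.7%, against 22.1% and 31.5% of all genes). Among 7 non-blood markers EPCAM was the one that passed the filter, and the list summed to 121 to 138 TPM against 231 to 247 TPM. The part that this shift in erythroid genes has in the chaperone differences was not tested. In RNA from whole cultures, fewer cells of a state and less RNA per cell cannot be told apart.

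As a set, the chaperone genes were abundant and moved modestly, with more falls than rises. The test was limma on log2(TPM + 1) over the 14294 genes that reached 1 TPM in 3 or more libraries, 2-sided, with Benjamini-Hochberg adjustment and a threshold of 0.05. Of the 47 members 46 passed that filter. The exception was HSPA12A, an atypical HSP70 relative, which was listed at 0 in 5 libraries and at 0.0201 TPM in control replicate 2. Of the 46, 28 (60.9%) passed the threshold against 53.6% of all genes tested, 8 higher (17.4%, against 22.1% of all genes) and 20 lower (43.5%, against 31.5%). Among genes with a mean TPM of 5 or more, 6345 of 10188 passed the threshold, and 39.8% of these calls were higher (41.2% in the main fit). Of the members 9 were then higher and 21 lower. In the main fit the median log2 fold change, MEN1 shRNA minus control, was -0.15 for the members and -0.07 for all genes. The median absolute log2 fold change was 0.30 for the members and 0.37 for all genes. A change of at least 0.5 on the log2 scale that also passed the threshold was met by 5 members upward (10.9%, against 14.0%) and by 10 downward (21.7%, against 20.5%).

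**Figure D1:**
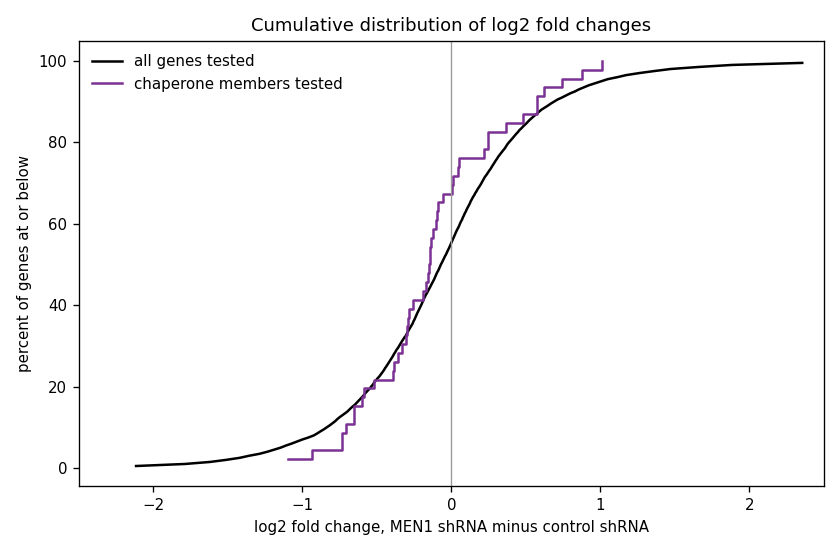
Cumulative percent of genes (vertical axis) at or below each log2 fold change of MEN1 shRNA minus control shRNA (horizontal axis), for the 46 members tested (purple steps) and all 14294 genes tested (black). The member curve lies above the black one around 0 and reaches its ends at -1.10 and 1.01, inside the range of the other genes.

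In 10 members all knockdown libraries exceeded all controls (21.7%, against 25.8% of all genes), and in 25 every one lay below (54.3%, against 35.9%). Together the 47 genes held 1.79%, 1.73% and 1.81% of all TPM in knockdown cells and 1.96%, 2.01% and 2.11% in the controls, and these ranges did not overlap. TPM is a share, and the 10 globin genes took 9.21% to 10.4% of it in knockdown cells against 5.23% to 5.78% in the controls. HSP90AB1, HSPA8 and HSP90AA1 ranked 36, 43 and 49 among all genes tested by mean TPM, and these 3 genes made up 36.9% to 39.6% and 36.3% to 41.4% of the members' TPM in the 2 groups. The median member stood at 209 TPM and the median tested gene at 15.6 TPM. Replicates were close: the median coefficient of variation between replicates was 5.61% and 5.16% for the members in the MEN1 shRNA and control groups, against 10.4% and 8.80% for all genes. BAG1 exceeded 20% in knockdown cells, and PFDN5, HSPA8 and HSPB1 exceeded it in the controls.

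**Figure D2:**
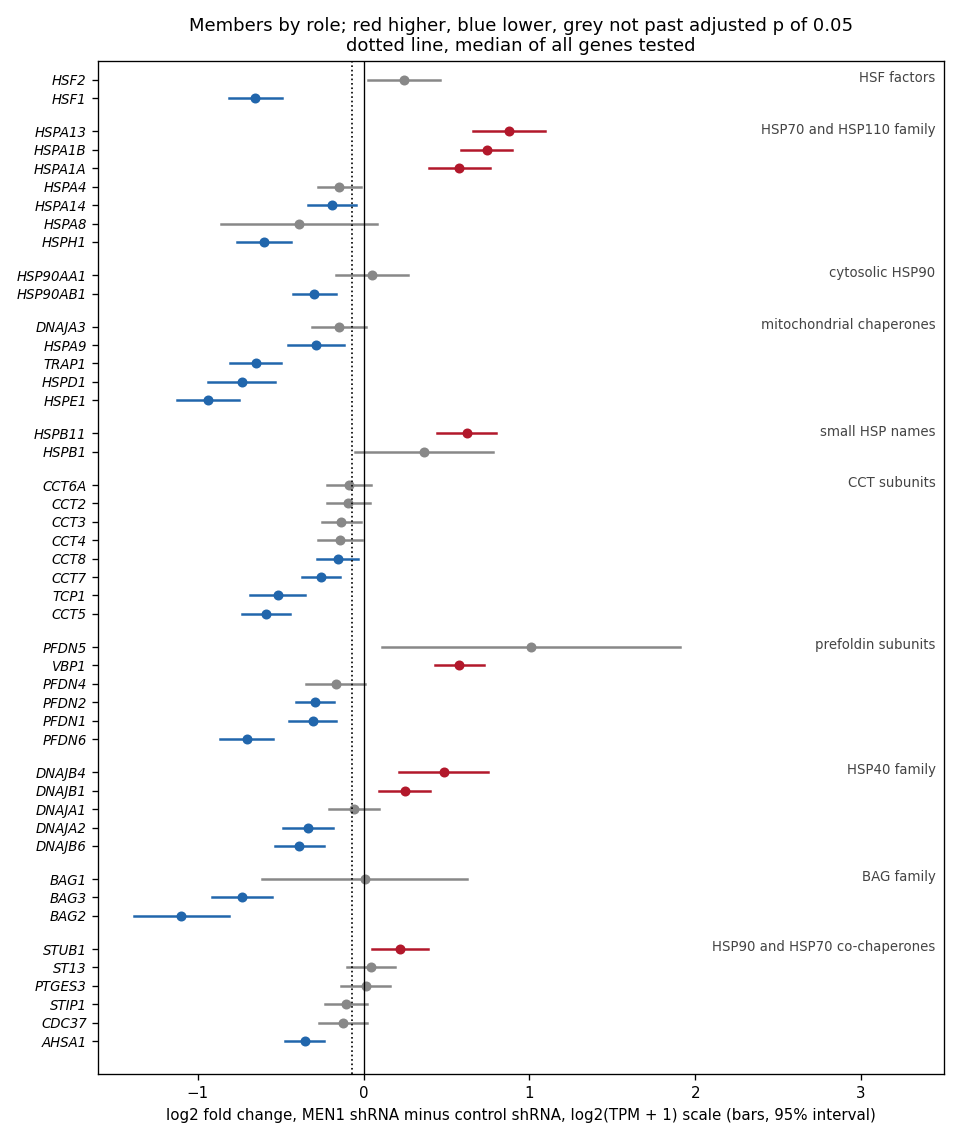
Log2 fold change of each of the 46 tested members (points) with its 95% interval from limma (bars), grouped by role, with red for higher, blue for lower and grey for not past the threshold, and a dotted line at the median of all genes. Mitochondrial chaperones and CCT subunits lie on the left of 0, while the HSP70, prefoldin and HSP40 groups hold genes on both sides of it.

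HSF1, the main stress-responsive heat shock factor, fell. Its level (ENSG00000185122) was 102, 89.7 and 89.0 TPM in knockdown cells and 145, 144 and 153 TPM in the controls. The groups did not overlap, and the mean went from 147 ± 5.15 to 93.5 ± 7.25 TPM (SD, n = 3 each), a log2 fold change of -0.65 (SE 0.0695, adjusted p 0.000207). HSF2, a second factor that is more active in development and can pair with HSF1, was at 33.3, 29.3 and 32.6 TPM against 23.8, 28.2 and 28.0 TPM. The knockdown libraries were all above the controls, but at 0.24 (95% interval 0.03 to 0.46) the log2 fold change missed the threshold (adjusted p 0.0573), and it did pass under scalings that centre all genes near 0, for example at an adjusted p of 0.0236 when globin and mitochondrial genes were left out of TPM.

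Heat shock elements are runs of alternating GAA and TTC units. Taking forms of 3 and 2 units together, members that carry them rose, fell or did not pass the threshold. RefSeq promoter windows (GRCh38.p14, 250 bases before to 50 after a start site) matched 41 of the 47 members by symbol, with none for CCT6A, HSF1, HSPA14, PFDN2, ST13 and STUB1. An element of 3 units, GAANNTTCNNGAA or TTCNNGAANNTTC (each is the other on the opposite strand), was present in 6 of the 41 members (14.6%) and in 0.608% of the 27305 genes with a window. The 6 are HSPA8, HSP90AA1, HSP90AB1, HSPD1, DNAJB6 and DNAJA1, and their elements follow with the matched units in capitals, 3 for each except HSPD1, where overlapping matches join into 4.
HSPA8 (chr11:123062346-123062375, minus strand): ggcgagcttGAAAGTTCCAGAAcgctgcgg
HSPA8 (chr11:123062171-123062200, minus strand): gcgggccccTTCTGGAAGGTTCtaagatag
HSP90AA1 (chr14:102087112-102087141, minus strand): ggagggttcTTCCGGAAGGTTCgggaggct
HSP90AB1 (chr6:44247769-44247798, plus strand): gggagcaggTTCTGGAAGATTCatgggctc
HSP90AB1 (chr6:44247822-44247851, plus strand): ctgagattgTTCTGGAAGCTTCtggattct
HSPD1 (chr2:197500061-197500090, minus strand): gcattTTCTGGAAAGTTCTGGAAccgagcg
DNAJB6 (chr7:157336864-157336893, plus strand): aagagccgaGAACCTTCGCGAAggtggggc
DNAJA1 (chr9:33025267-33025296, plus strand): cgccgggcgGAACTTTCCAGAAcgctcggt
Of these 6 genes, HSP90AB1, HSPD1 and DNAJB6 were lower in knockdown cells and HSPA8, HSP90AA1 and DNAJA1 did not pass the threshold. Of all genes tested 31.5% were lower and 22.1% higher, and 6 genes are too few to set against these shares. The HSPD1 stretch lies upstream of 1 of its annotated start sites but downstream of another. HSPA8 and HSP90AB1 each have 2 separate matches, and that of DNAJA1 begins 3 bases after its start site.

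A shorter element of 2 units, GAANNTTC or TTCNNGAA (each its own reverse complement, and contained in the longer one), was present in 18 of the 41 members (43.9%) and in 16.2% of all genes with a window. It is the form found by exact match before HSPA1A and HSPA1B, the stress-inducible HSP70 pair. Their promoter stretches were picked for print because both genes rose, so they cannot show whether the element goes with a rise. Among the 18 carriers, HSPA1A, HSPA1B, DNAJB1 and DNAJB4 were higher in knockdown cells. BAG2, PFDN6, HSPD1, TCP1, DNAJB6, HSP90AB1 and HSPA9 were lower, and the rest did not pass the threshold. Of all genes tested 22.1% were higher and 31.5% lower. Units with a mismatch were not searched for, so a longer imperfect element would be missed. Capitals mark the 2-unit element and, upstream of it, a CCAAT box read as its reverse complement.
HSPA1A (chr6:31815368-31815462, plus strand): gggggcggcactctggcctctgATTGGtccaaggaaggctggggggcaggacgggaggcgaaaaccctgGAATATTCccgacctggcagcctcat
HSPA1B (chr6:31827563-31827657, plus strand): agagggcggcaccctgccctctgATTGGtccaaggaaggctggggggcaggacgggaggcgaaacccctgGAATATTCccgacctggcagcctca
The 250 bases before the 2 start sites are 93.6% identical, and the element and the CCAAT box lie in the same order in both, with a further CCAAT box between the printed stretch and the start site. A CCAAT box was present in 14 of the 41 members (34.1%), TCP1 and CCT8, which fell, among them, and in 39.7% of all genes with a window. DNAJB1, an HSP40 that works with inducible HSP70 and also rose, has 2 such elements before 1 of its start sites.
DNAJB1 (chr19:14518456-14518485, minus strand): cgggcggggcgGAAGGTTCtggagggggct
DNAJB1 (chr19:14518426-14518455, minus strand): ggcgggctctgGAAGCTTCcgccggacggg
HSPH1 and BAG3, both known HSF1 targets, have neither form in their windows, which says only that these letters are absent there. A match is a description of letters and not evidence of binding.

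**Figure D3:**
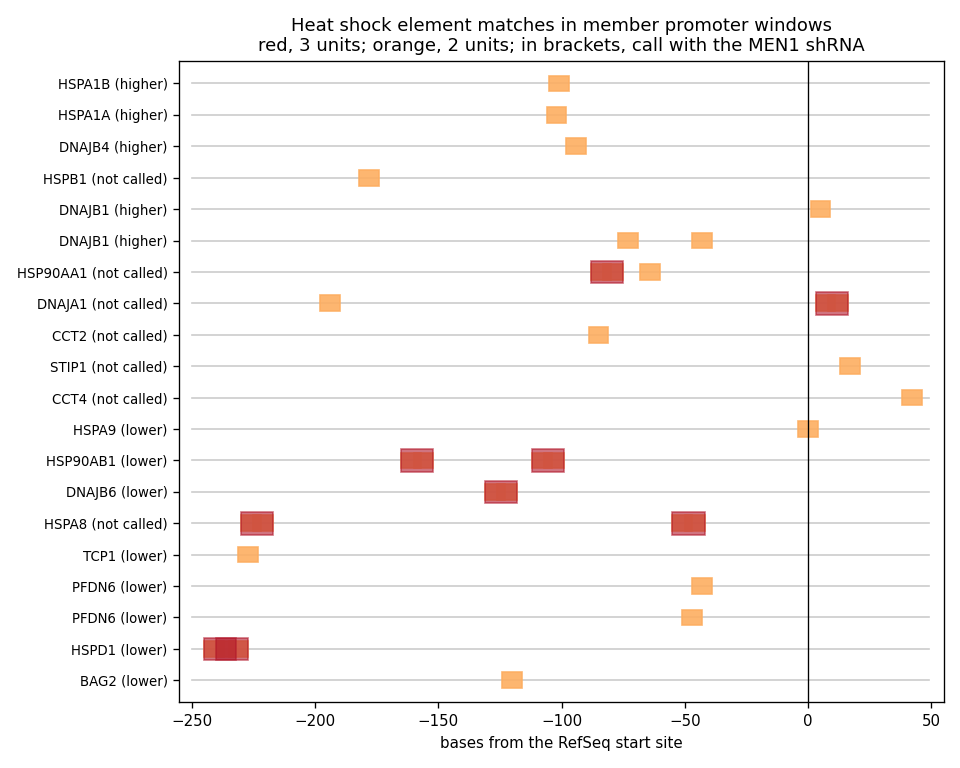
Positions of heat shock element matches (red, 3 units; orange, 2 units) along member promoter windows, in bases from the RefSeq start site at 0, with genes ordered from the highest to the lowest log2 fold change and 1 line for each window that holds a match. Windows with a match occur beside genes that were higher, lower and not called, and the 3-unit elements of HSP90AB1, DNAJB6 and HSPD1 belong to genes that fell.

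The HSP70 and HSP110 group split, with 3 of 7 tested genes higher and 2 lower (42.9% and 28.6%, against 22.1% and 31.5% of all genes). HSPA1A (ENSG00000204389, chromosome 6, 31815543 to 31817946) was at 199, 195 and 206 TPM in knockdown cells and at 139, 119 and 145 TPM in the controls. HSPA1B (ENSG00000204388, chromosome 6, 31827738 to 31830254) was at 218, 224 and 231 TPM against 136, 124 and 142 TPM. In both genes every MEN1 shRNA library exceeded every control. The log2 fold changes were 0.58 (SE 0.0784, adjusted p 0.000621) and 0.74 (SE 0.0656, adjusted p 9.59e-05). Their coding sequences of 1926 bases differ at 4 positions, so reads can be divided between them either way, and their sum was fitted as 1 feature. The sum rose from 268 ± 22.5 to 425 ± 10.8 TPM, a log2 fold change of 0.66 (SE 0.0706, adjusted p 0.000204).

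**Figure D4:**
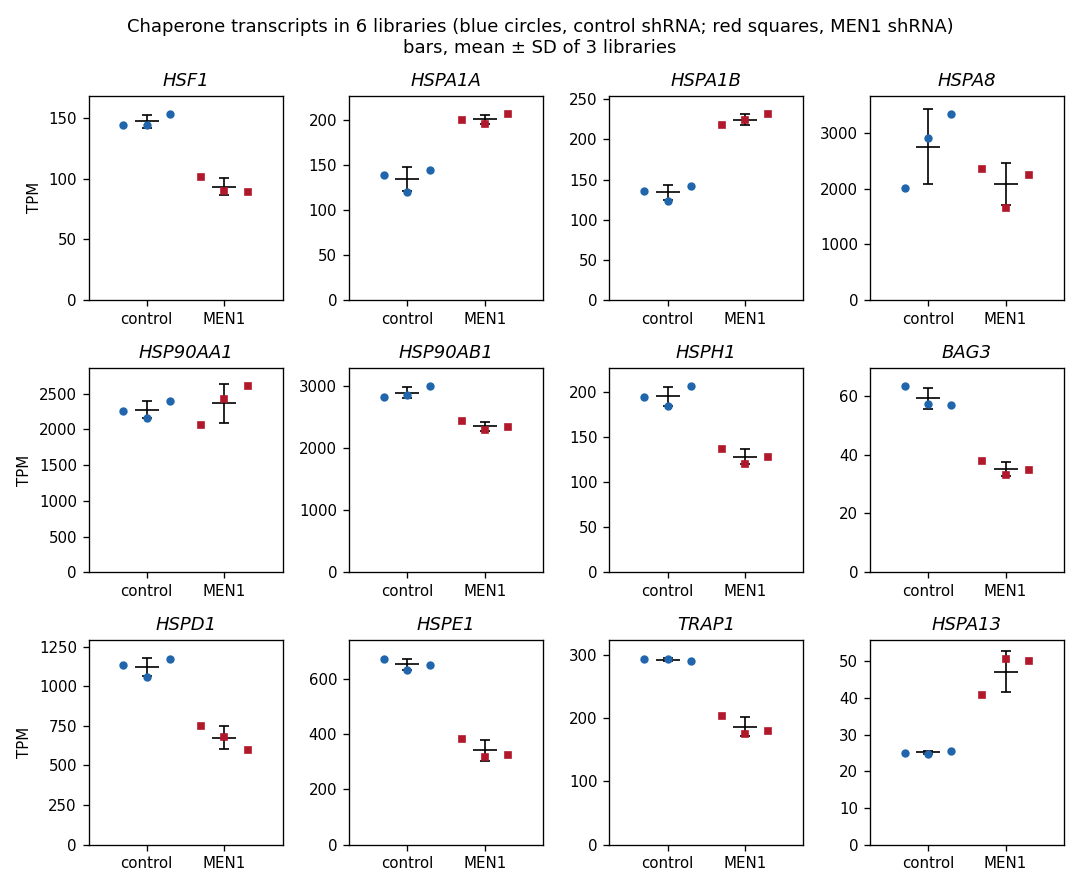
TPM in each library for 12 members (blue circles, control shRNA; red squares, MEN1 shRNA), with the mean ± SD of 3 libraries as bars, on linear axes that start at 0. HSPA1A, HSPA1B and HSPA13 are higher in knockdown cells, HSPA8 and HSP90AA1 overlap between groups, and the other 7 are lower without overlap.

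HSPA8, the constitutive HSC70 that carries out most housekeeping folding and uncoats clathrin vesicles, was far more abundant than the inducible pair and varied between replicates. It was at 2357, 1650.0 and 2235 TPM in knockdown cells and at 2018, 2902 and 3334 TPM in the controls. The groups overlapped, since control replicate 1 lay inside the range of the MEN1 shRNA libraries, and a log2 fold change of -0.39 (95% interval -0.86 to 0.08) missed the threshold (adjusted p 0.145). Without control replicate 1 it passed (log2 fold change -0.60, adjusted p 0.0230), while it was -0.23 both without knockdown replicate 2 (adjusted p 0.384) and without control replicate 3 (adjusted p 0.376). HSPA1A and HSPA1B together amounted to 0.177, 0.254 and 0.196 of the HSPA8 level in knockdown cells and 0.136, 0.0838 and 0.0859 in the controls.

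HSPA13, which belongs to the HSP70 family but lacks the client-binding part and sits on microsomes, had the highest log2 fold change of the members that passed the threshold. Its TPM was 40.7, 50.7 and 50.1 against 25.0, 24.8 and 25.6, a log2 fold change of 0.88 (SE 0.0938, adjusted p 0.000211). HSPH1, the inducible HSP110 that exchanges nucleotide on HSP70, fell: 137, 121 and 128 TPM against 195, 185 and 206 TPM, a log2 fold change of -0.60 (SE 0.0700, adjusted p 0.000305). Its constitutive relative HSPA4 stood at 155 ± 1.51 against 172 ± 8.22 TPM, lower in every library without passing the threshold (log2 fold change -0.15, adjusted p 0.0572). HSPA14, a ribosome-associated HSP70, fell slightly (log2 fold change -0.19, adjusted p 0.0329). That call was lost in 12 of the 20 alternatives, FPKM in place of TPM and 5 of the 6 fits with a library left out among them, and 20.1% of its 100-base stretches are also in MSANTD7, a gene that overlaps it on the same strand. Summed with MSANTD7, a setting added after the data were seen, the log2 fold change was -0.32 (adjusted p 0.00273).

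The 2 cytosolic HSP90 genes differed in what they did. HSP90AB1, the constitutive form, was at 2435, 2294 and 2349 TPM in knockdown cells and at 2832, 2864 and 2998 TPM in the controls, with no overlap (log2 fold change -0.30, SE 0.0565, adjusted p 0.00319). HSP90AA1, the stress-inducible form, was at 2065, 2421 and 2598 TPM against 2252, 2163 and 2396 TPM, groups that overlap, and its log2 fold change was 0.05 with a 95% interval of -0.16 to 0.27 (adjusted p 0.672). The fall of HSP90AB1 did not pass the threshold under quantile normalization, where its log2 fold change was -0.09. The ratio of HSP90AA1 to HSP90AB1 TPM was 0.848, 1.06 and 1.11 in knockdown cells and 0.795, 0.755 and 0.799 in the controls. The ranges do not overlap, and the exact 2-sided permutation p is 0.1, the smallest that 3 against 3 libraries allow.

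Of 6 other HSP90 and HSP70 co-chaperones 1 fell and 1 rose (16.7% each, against 31.5% lower and 22.1% higher of all genes). AHSA1, which speeds up the HSP90 ATPase, was at 235, 230.3 and 232 TPM against 302, 286 and 306 TPM (log2 fold change -0.36, SE 0.0508, adjusted p 0.000798). STUB1, the ubiquitin ligase CHIP that sends HSP70 and HSP90 clients for degradation, was at 108, 108 and 104 TPM against 88.8, 101 and 85.1 TPM (log2 fold change 0.22, adjusted p 0.0360), a call that was lost in 9 of 20 alternatives. The remaining 4 missed the threshold. STIP1 (HOP), which bridges HSP70 and HSP90, had a log2 fold change of -0.10 (95% interval -0.23 to 0.02). For CDC37, which brings kinases to HSP90, it was -0.12 (-0.27 to 0.02). For PTGES3 (p23), which stabilises closed HSP90, it was 0.01 (-0.13 to 0.16), and for ST13 (HIP), which slows the HSP70 cycle, 0.04 (-0.10 to 0.19).

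The mitochondrial chaperones were lower in 4 of 5 genes (80%, against 31.5% of all genes) and higher in none (against 22.1%), with a median log2 fold change of -0.65 against -0.07 for all genes. HSPE1, the HSP10 lid of the HSP60 chamber, was at 383, 316 and 323 TPM in knockdown cells and at 672, 632 and 650.0 TPM in the controls, so that 52.3% of the control mean remained (log2 fold change -0.94, SE 0.0805, adjusted p 8.73e-05). HSPD1, HSP60 itself, was at 747, 683 and 600.1 TPM against 1136, 1059.8 and 1175 TPM (log2 fold change -0.74, SE 0.0870, adjusted p 0.000329). Neither gene overlapped between groups. HSPD1 and HSPE1 lie head to head on chromosome 2, with RefSeq start sites at 197500274 and 197500379, 105 bases apart on opposite strands. The ratio of HSPD1 to HSPE1 TPM was 1.95, 2.16 and 1.86 in knockdown cells and 1.69, 1.68 and 1.81 in the controls.

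TRAP1, the mitochondrial HSP90, had 204, 176 and 179.9 TPM against 294, 294 and 290.4 TPM, the tightest control group of the mitochondrial genes (log2 fold change -0.65, SE 0.0664, adjusted p 0.000171). HSPA9 (mortalin), the mitochondrial HSP70 that pulls proteins through the inner membrane and serves iron-sulfur cluster assembly, fell less: 248, 246 and 269.7 TPM against 285, 315 and 334 TPM (log2 fold change -0.29, SE 0.0733, adjusted p 0.0126). DNAJA3, the HSP40 partner of HSPA9, missed it (log2 fold change -0.15, 95% interval -0.31 to 0.01), and its groups overlapped. Across the 20 alternatives the log2 fold changes of HSPE1, HSPD1 and TRAP1 stayed between -1.02 and -0.56.

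The CCT chaperonin is a double ring with 8 different subunits in each ring, and 4 of the 8 subunits fell, by unequal amounts, with none higher. That is 50% called, against 53.6% of all genes tested (31.5% lower), and the median log2 fold change was -0.15 against -0.07. All 8 had a negative log2 fold change, -0.59 to -0.09, as did 7905 of the 14294 genes, although CCT6A was at 0.0014 under median-of-ratios scaling. CCT5 was at 279, 260.4 and 256 TPM against 391, 384 and 424 TPM (log2 fold change -0.59, SE 0.0619, adjusted p 0.000193). TCP1 (CCT1), the first subunit described, was at 555, 511 and 465 TPM against 714, 739 and 734 TPM (log2 fold change -0.52, SE 0.0712, adjusted p 0.000657). CCT7 fell by 0.26 and CCT8 by 0.16 on the log2 scale (adjusted p 0.00323 and 0.0405), the latter call being lost in 12 of 20 alternatives. CCT2, CCT3, CCT4 and CCT6A lay at -0.09, -0.13, -0.14 and -0.09, and none of them passed.

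Because subunits of the complex are assembled in equal numbers, their relative levels were compared per length, in TPM. The order of mean TPM differed between groups. In the controls it was TCP1, CCT8, CCT3, CCT7, CCT2, CCT6A, CCT5 and CCT4, the first 3 at 729 ± 13.3, 728 ± 21.7 and 728 ± 22.2 TPM and so not apart beyond their spread, and the last 2 at 399.7 ± 21.1 and 369 ± 9.36 TPM. In knockdown cells it was CCT3, CCT8, CCT2, CCT7, TCP1, CCT6A, CCT4 and CCT5, with TCP1 at 510.1 ± 44.9 TPM and CCT5 at 265 ± 12.3 TPM. The lowest subunit was CCT4 in all 3 control libraries and CCT5 in all 3 knockdown libraries. The highest subunit had 1.95, 2.06 and 1.99 times the level of the lowest in the control libraries and 2.41, 2.60 and 2.53 times in knockdown cells, and these ranges do not overlap. The summed TPM of the 8 subunits was 4019, 3959 and 3819 against 4569, 4536 and 4789.

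**Figure D5:**
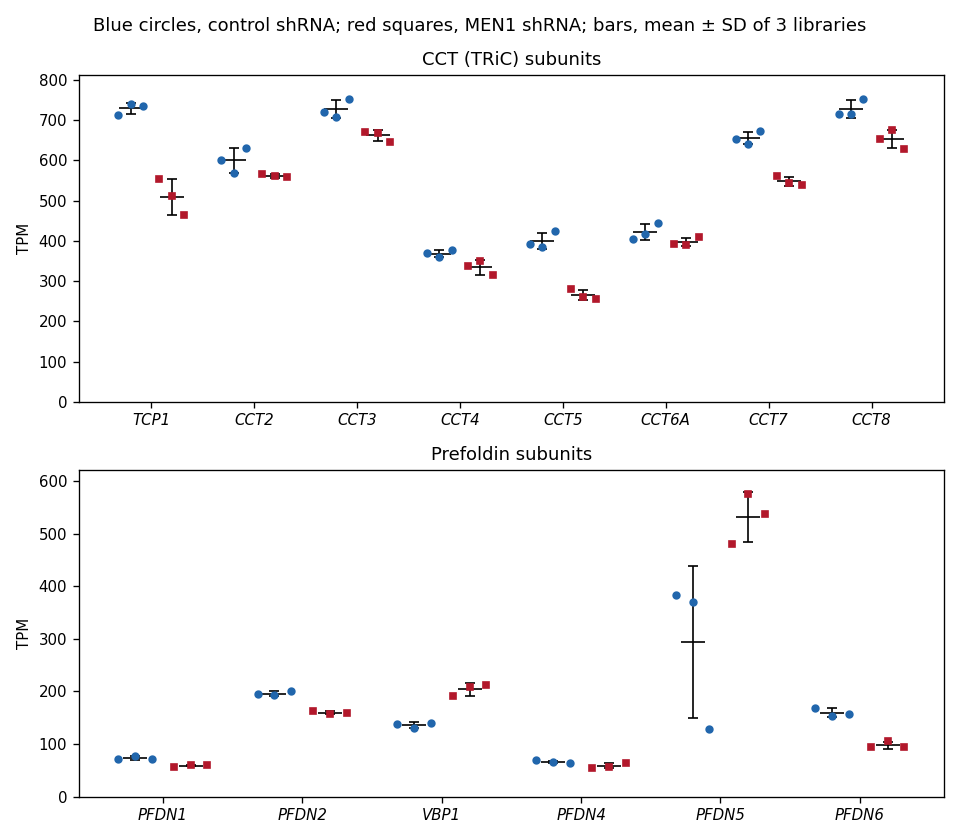
TPM per library of the 8 CCT subunits (upper panel) and the 6 prefoldin subunits (lower panel), with blue circles for control shRNA, red squares for MEN1 shRNA and bars for the mean ± SD of 3 libraries. TCP1 and CCT5 show the widest gaps among CCT subunits. Among prefoldin subunits VBP1 is higher and PFDN6 lower in knockdown cells, and PFDN5 has 1 control library far below the other two.

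Prefoldin, the 6-subunit jellyfish-shaped complex that delivers actin and tubulin to CCT, had subunits that moved in opposite directions. Of the 6, 1 was higher and 3 lower (16.7% and 50%, against 22.1% and 31.5% of all genes). VBP1 (prefoldin 3, one of the 2 alpha-type subunits) rose, with 190.4, 209 and 212 TPM against 138, 130.3 and 140.1 TPM (log2 fold change 0.58, SE 0.0633, adjusted p 0.000234). PFDN6 fell, with 93.4, 105 and 94.3 TPM against 169, 153 and 157 TPM (log2 fold change -0.71, SE 0.0680, adjusted p 0.000136). PFDN1 and PFDN2, also of the beta type, fell by 0.31 and 0.29 on the log2 scale (adjusted p 0.00384 and 0.00183), and PFDN4 had a log2 fold change of -0.17 that did not pass (adjusted p 0.102).

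PFDN5, the other alpha-type subunit and a MYC-binding protein, was at 481, 576 and 537 TPM in knockdown cells and at 383, 371 and 128 TPM in the controls. The knockdown libraries were the 3 highest, but control replicate 3 was far below the other two, and the difference missed the threshold (log2 fold change 1.01, SE 0.385, adjusted p 0.0584). Without control replicate 3 the log2 fold change was 0.49 and passed (adjusted p 0.00422), and over the 20 alternatives it ran from 0.49 to 1.28. In the same library an unnamed gene on the same strand that overlaps PFDN5, ENSG00000288663, was at 33.5 TPM, against 6.38 to 10.9 TPM in the other 5, and adding its level, a setting chosen after these values were seen, gave a log2 fold change of 0.90 (adjusted p 0.0410). VBP1 and PFDN5 together held 64.6%, 67.5% and 66.5% of prefoldin TPM in knockdown cells and 50.9%, 50.7% and 35.2% in the controls. The summed TPM of the 4 beta-type subunits was 369, 378 and 377 against 503, 488 and 494.

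HSP40 proteins went both ways, with 2 of 5 higher and 2 lower (40% each, against 22.1% and 31.5% of all genes). DNAJB1, the inducible partner of HSP70, was at 164, 147 and 154 TPM against 123, 130.1 and 138 TPM (log2 fold change 0.25, SE 0.0664, adjusted p 0.0155), a call lost without control replicate 1 (adjusted p 0.0520). DNAJB4, a close relative, was at 17.3, 21.0 and 21.4 TPM against 12.2, 14.7 and 14.9 TPM (log2 fold change 0.48, SE 0.116, adjusted p 0.00941). DNAJB6, which holds back polyglutamine aggregation, was lower at 80.3, 79.2 and 76.9 TPM against 107, 96.0 and 107 TPM (log2 fold change -0.39, SE 0.0643, adjusted p 0.00163). DNAJA2, a main partner of HSPA8, fell by 0.33 on the log2 scale (adjusted p 0.00352). DNAJA1, which shares that role, missed the threshold (log2 fold change -0.06, 95% interval -0.21 to 0.09).

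Of the BAG proteins, which release ADP and client from HSP70, BAG2 and BAG3 fell. That is 2 of 3 (66.7%, against 31.5% of all genes), and none rose (against 22.1%). BAG2, an inhibitor of the ligase CHIP, was at 14.1, 10.1 and 11.1 TPM against 24.6, 27.3 and 26.5 TPM, a mean of 11.8 ± 2.07 against 26.1 ± 1.40 TPM and the lowest log2 fold change of all members (-1.10, SE 0.122, adjusted p 0.000250). BAG3, an HSF1 target that links HSP70 and small heat shock proteins to autophagy, was at 37.8, 32.9 and 34.7 TPM against 63.1, 57.3 and 56.8 TPM (log2 fold change -0.73, SE 0.0772, adjusted p 0.000196). BAG1 was at 70.5, 50.4 and 117 TPM against 73.1, 68.5 and 82.3 TPM, and its log2 fold change of 0.01 had a 95% interval of -0.61 to 0.63. Knockdown replicates 2 and 3 of BAG1 stood on either side of all controls. With gene-level coverage in place of TPM, a setting chosen after these values were seen, BAG1 was lower (log2 fold change -0.48, adjusted p 0.0131).

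Of 2 genes with small heat shock protein names 1 rose (50%, against 22.1% of all genes) and none fell (against 31.5%). HSPB1 (HSP27), which holds unfolded proteins without ATP and binds actin, was at 708, 786 and 901 TPM against 753, 676 and 462 TPM. Its groups overlapped and the threshold was missed (log2 fold change 0.36, 95% interval -0.05 to 0.78, adjusted p 0.124), and without control replicate 3, its lowest library, the log2 fold change was 0.16. That library was also the low one for PFDN5. HSPB11 (IFT25) rose, at 48.4, 55.3 and 53.9 TPM against 31.9, 35.5 and 33.9 TPM (log2 fold change 0.62, SE 0.0767, adjusted p 0.000395). The 8 other small heat shock protein genes listed, CRYAB and HSPB8 among them, did not reach the filter.

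Other genes of these pathways were read from lists of 117 further names, of which 104 gene rows were tested. Of these rows, 23 were higher (22.1%, against 22.1% of all genes) and 39 lower (37.5%, against 31.5%). The further HSP90 co-chaperones leaned downward, with 14 of 21 lower (66.7%, against 31.5% of all genes) and 1 higher (4.8%, against 22.1%). Their median log2 fold change was -0.44. The 3 with the lowest adjusted p were UNC45A, a myosin chaperone (log2 fold change -0.89, adjusted p 8.17e-05), RUVBL2, an ATPase of the R2TP complex (-0.63, adjusted p 9.62e-05), and TTI2, a partner of TELO2 in the folding of large kinases (-0.82, adjusted p 0.000107).

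Further HSP70 and HSP40 genes moved both ways, 8 higher and 11 lower of 29 (27.6% and 37.9%, against 22.1% and 31.5% of all genes). Their median log2 fold change was -0.06. DNAJB2, a ubiquitin-binding HSP40, was at 42.6, 49.0 and 43.4 TPM against 21.3, 20.3 and 21.5 TPM (log2 fold change 1.06, adjusted p 4.96e-05). DNAJC2, the ribosome-bound HSP40 that works with HSPA14, fell from 95.4 ± 4.29 to 53.8 ± 2.78 TPM (-0.81, adjusted p 6.96e-05), and SGTA, which sorts tail-anchored proteins, from 162 ± 5.54 to 99.1 ± 6.60 TPM (-0.70, adjusted p 0.000118).

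Among CCT and prefoldin cofactors 5 of 14 rows were higher and 4 lower (35.7% and 28.6%, against 22.1% and 31.5% of all genes). PDCL, a phosducin-like regulator of CCT, had the lowest adjusted p, with 71.0 ± 4.42 TPM against 31.7 ± 1.69 TPM (log2 fold change 1.14, adjusted p 3.46e-05), followed by the tubulin cofactors TBCB (0.72, adjusted p 0.000133) and TBCD (0.58, adjusted p 0.000160). Of 14 actin and tubulin genes, the classic CCT clients, 4 were higher and 2 lower (28.6% and 14.3%, against 22.1% and 31.5% of all genes). Lowest in adjusted p were TUBB2A (-1.30, adjusted p 2.94e-05), TUBG2 (0.92, adjusted p 3.16e-05) and TUBA1A (1.21, adjusted p 0.000876). Tubulin genes have near-identical relatives, so their levels carry that uncertainty.

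Of 18 mitochondrial partners and proteases 3 were higher and 7 lower (16.7% and 38.9%, near the 22.1% and 31.5% of all genes), with a median log2 fold change of -0.19. GRPEL2, a nucleotide exchange factor of HSPA9, rose (0.76, adjusted p 0.000134), as did DNAJC28 (1.14, adjusted p 0.000145), while DNAJC19 of the import motor fell (-1.03, adjusted p 0.000148). Of 7 HSF1-related genes tested 1 was higher and 1 lower (14.3% each, against 22.1% and 31.5% of all genes). The higher was HSBP1, an HSF1-binding protein (0.36, adjusted p 0.00847), and the lower its relative HSBP1L1 (-1.37, adjusted p 7.20e-05). AHSP, the erythroid chaperone of free alpha-globin, was at 1993 ± 99.5 TPM against 1011 ± 48.9 TPM (log2 fold change 0.98, adjusted p 3.46e-05).

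How reads were shared limits some of these values. Of the 47 members, 33 have no 100-base stretch of their longest coding transcript in GENCODE v29 that also occurs in a transcript of another gene. More than 10% of the stretches were shared in HSPA1A (69.9%), HSPA1B (72.7%), HSPA14 (20.1%), HSPE1 (17.0%), ST13 (14.2%) and DNAJB6 (11.0%). For HSPE1 the main partner is the read-through gene HSPE1-MOB4, which reached at most 1.59% of the HSPE1 level. Pseudogene rows named as a member followed by P and a number added at most 5.03% to a member's TPM, the highest share being that of DNAJB6. Adding them changed no member's direction or side of the threshold. Pseudogenes named otherwise were not added. Among them are HSP90AA2P and HSP90AB3P, which hold 2.05% of the stretches of HSP90AA1 and 1.59% of those of HSP90AB1, and their part was not tested. Several members overlap a gene on the other strand, and whether strand was used in the quantification is not given in the sources used here. TCP1 overlaps ACAT2, which was at 343 to 353 TPM in knockdown cells and 239 to 258 TPM in controls, and PFDN1 overlaps CYSTM1, at 116 to 148 against 39.0 to 40.8 TPM. For PFDN6 the partner is RGL2, at 28.0 to 38.9 against 12.6 to 18.0 TPM, and for BAG1 it is SPINK4, at 12.3 to 31.8 against 0 to 0.339 TPM. STUB1, which rose, overlaps JMJD8, at 17.5 to 22.8 against 34.5 to 44.4 TPM. In these 4 pairs with a called member, the partner's levels lay on the other side from the member's. In others the partner moved the same way: HSF1 overlaps DGAT1, at 15.7 to 18.4 against 26.1 to 31.9 TPM, and HSPD1 and HSPE1, both lower, overlap each other. The part these overlaps have in the members' values was not tested.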

How the data were processed

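Libraries were directional and made after poly(A) selection, per the labels' protocols. The submitters' processing notes name FastQC, Trimmomatic, STAR 2.7.1a, Picard 2.20.4, StringTie 2.0.4 and hg38, without roles. The authors deposited, per library, mean coverage (signal), FPKM and TPM. In control replicate 2 the deposited TPM and coverage, each a score per gene, had 1 and 2 values below 0, set to 0 here. All 47 member positions overlap their GENCODE v29 (GRCh38) gene.

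Values were fitted as log2(TPM + 1), which understates changes of low genes, with limma 3.58.1 in R 4.3.3 (lmFit, eBayes with trend) over 14294 genes, and all adjusted p-values come from such fits. Models for counts were not used. Precision rests on 3 libraries a group, with each gene's variance drawn by eBayes toward a trend over all genes tested. The fit was first tested on simulated data. Aligned bases were inferred from coverage over FPKM in single-transcript genes. Python 3.11.15 with pandas 2.3.3 and NumPy 2.4.6 made the summaries, SciPy 1.17.1 the permutation tests, Biopython 1.88 the alignments and matplotlib 3.10.9 the figures.

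Members and lists were chosen with earlier results of these data known. All members are named. Values in every library are given for members past the threshold at 0.5 log2 units or more, for the inducible HSP70, HSP90, HSP60, HSP10 and HSF genes, and for others where a result turns on them. From each further list at most 3 genes with the lowest adjusted p are named. Alternatives changed the unit, pseudocount, filter, scaling, model, threshold, pairing, shared reads and libraries.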

Additional observations from a re-analysis of the deposited data

How the results depend on the processing

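Of the 100 re-runs of a main result 96 kept its direction and side of the threshold, or its count within 1.5 times. The other 4 were limma's treat, which asks by construction for changes beyond 0.5 log2 units. It left 2126 of 14294 genes (39.9% of these calls higher), and of the 46 members 2 higher and 2 lower. The HSPA1A and HSPA1B sum (log2 fold change 0.66) was then at an adjusted p of 0.134. Besides treat, the members called ran from 7 to 10 higher and from 18 to 24 lower, the last with gene-level coverage, a setting added after the data were seen. The background moved too. Over all genes, 38.4% of calls were higher with gene-level coverage, 41.2% in the main fit and 49.5% with median-of-ratios scaling. Leaving out 1 library gave 6577 to 7542 genes. With a replicate block, 7012 genes passed (41.3% of these calls higher), 9 members higher and 18 lower: CCT8 (adjusted p 0.102) and HSPA14 (0.0782) lost the threshold and PFDN5 (0.0459) gained it. Same-numbered libraries did not deviate together (correlations 0.0171, -0.0265 and -0.0124), so the numbers were not taken as pairs. For single members, 823 of 920 re-runs kept direction and side, 56 lost the threshold, 26 gained it and 15 changed sign, all 15 in genes that had not passed. BAG1 was -0.064 with array weights, -0.48 with gene-level coverage, and -0.31 to 0.29 with 1 library left out. The same leave-one-out range was -0.021 to 0.14 for HSP90AA1, -0.017 to 0.062 for PTGES3 and -0.0082 to 0.077 for ST13. PTGES3 was -0.040 with quantile normalization and -0.016 with gene-level coverage. Median-of-ratios scaling gave 0.0014 for CCT6A and 0.030 for DNAJA1, which was 0.0085 when globin and mitochondrial genes were left out of TPM. The cause was not tested in any of these. Depth in reads is unknown, and 3 libraries a group limit the smallest exact permutation p to 0.1.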
